A study of Rattus norvegicus with 6 samples.

Results

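The cytosolic ribosomal protein genes of adult rat hippocampal NSCs were read across 6 RNA-seq samples. The members were all rows whose symbol starts with *Rpl* or *Rps* followed by a digit, together with *Rplp0*, *Rplp1*, *Rplp2* and *Rpsa*, while 9 rows for S6 kinases (*Rps6k*) were left out. This gave 86 of the 17315 rows, 51 named for the large subunit and 35 for the small subunit. All 77 core symbols that were looked for were present, 46 large and 31 small. The other 9 rows were 6 paralogs (*Rpl3l*, *Rpl22l1*, *Rpl36al*, *Rpl39l*, *Rps27l* and *Rps4y2*), 2 pseudogenes (*Rpl37a-ps1* and *Rps4x-ps1*) and *Rps19bp1*, whose product binds a ribosomal protein and is not one.

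The cells were HCN, a cloned line of neural stem cells from the adult rat hippocampus. They were reverse-transfected with a Stealth control duplex (siControl, 3 samples) or with a single Stealth duplex against *Derl1* (siDerl1, 3 samples), numbered 1 to 3 in each group. *Derl1* encodes Derlin-1, an ER membrane protein of ER-associated degradation. After 2 days in proliferation medium, both groups spent 2 days in quiescence medium with BMP4 before RNA was collected, so no sample of proliferating cells was compared here. Values are TPM, shares of all transcripts that are corrected for transcript length and scaled to the same total in every sample. TPM keeps no read numbers, and the depth behind each value is therefore unknown. No label places the samples of a group in separate cultures, so p-values measure only the spread between these samples, which may be technical. In bulk RNA, fewer cells of a type and less RNA per cell cannot be told apart.

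A cytosolic ribosome joins a large subunit, which makes peptide bonds, to a small subunit, which decodes the mRNA, and nearly every ribosomal protein is present in one copy per particle. Vertebrate ribosomal protein mRNAs typically begin with a C followed by a run of pyrimidines, the TOP motif. Through it their translation responds to mTORC1. The mRNA level and the translation of these genes are thus separate quantities, and only the mRNA level was measured here. Neural stem cells are known to make less protein in quiescence than in proliferation.

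Part of the members carry this motif at the annotated start. RefSeq windows of the assembly GRCr8, each covering 250 bases before and 50 bases after the annotated start, were matched by accession to 66 of the 86 members, of which 60 were core genes. A C at the first base followed by at least 4 more C or T, read on the gene's own strand, was found in 23 of these 60 core genes (38.3%) and in 881 of all 33469 windows (2.63%). It was present in 16 of 37 large subunit and 7 of 23 small subunit core genes. The following 7 starts are examples from the genes that carry the motif and recur in the results below. Each line holds 10 bases before and 20 bases from the start, 5′ to 3′, with the pyrimidine run in capitals.

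Rpl31: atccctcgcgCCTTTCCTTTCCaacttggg
Rpl28: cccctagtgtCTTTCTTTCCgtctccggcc
Rpl37a: cccgttgcgtCTCTTCCTCTTCgggcttgg
Rpl22: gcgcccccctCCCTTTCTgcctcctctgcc
Rps7: agagctgtgtCTCTTTCTaagccggcactc
Rps26: ccgccgggtcCTCTTTCgagtcttggctcc
Rps27: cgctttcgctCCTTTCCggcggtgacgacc

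The windows lie, in the same order, at chr9:49143101-49143130, plus strand, chr1:78083513-78083542, minus strand, chr9:81748081-81748110, plus strand, chr5:168117951-168117980, plus strand, chr6:50999426-50999455, minus strand, chr7:1643385-1643414, minus strand and chr2:177964587-177964616, minus strand (GRCr8). The runs of *Rpl31* and *Rpl37a* have 12 bases each, the longest length among the core genes matched, which *Rpl10* shares. The next 4 starts, of genes that also recur, hold no such run at the annotated first base, which says only that these letters are not there.

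Rpl29: tttctctttctcttccggtcccaggcgctg
Rps16: aaaatcggtcggggtggccccaagctttcc
Rpl22l1: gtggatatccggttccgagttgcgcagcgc
Rps27l: ttcatttgtcattatttgtggtgtccagag

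These lie at chr8:115947633-115947662, plus strand, chr1:92770648-92770677, plus strand, chr2:113683186-113683215, plus strand and chr8:76443648-76443677, plus strand (GRCr8). *Rpl22l1* and *Rps27l* are the paralogs of *Rpl22* and *Rps27*, whose starts above do hold the run. Fixed letter motifs were searched on both strands of the whole windows. CCGGAAG, the core of many ETS factor sites, was in 19 of 60 core genes (31.7%) and in 8.75% of all windows. AAGATGG, a part of the YY1 site, was in 9 of 60 (15.0%) against 7.01%, and TATAAA was in 6 of 60 against 14.2%.

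Ribosomal protein mRNAs held a large share of the transcripts in every sample. The 86 members held 19.4, 17.8 and 17.4% of the summed TPM in siControl 1, 2 and 3 and 19.6, 19.0 and 18.3% in siDerl1 1, 2 and 3. Of the 100 most abundant rows of each sample, 58 to 63 were members. By comparison, 69 mitochondrial ribosomal protein genes together held 0.527 to 0.566% and 41 proteasome genes 0.774 to 0.889%.

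The large subunit share was 10.9, 10.1 and 9.90% in siControl NSCs and 11.1, 10.9 and 10.4% in siDerl1 NSCs, or 10.3% ± 0.547 and 10.8% ± 0.360 (SD, n = 3 each). The small subunit share was 8.50, 7.71 and 7.52% in siControl NSCs and 8.45, 8.10 and 7.88% in siDerl1 NSCs, or 7.91% ± 0.521 and 8.14% ± 0.288 (SD, n = 3 each). In both subunits the groups overlapped, and in both groups the share was highest in number 1 and lowest in number 3. The mean share of all members was 19.5% for number 1, 18.4% for number 2 and 17.9% for number 3. Within numbers, siDerl1 minus siControl was 0.122, 1.14 and 0.866 percentage points for numbers 1, 2 and 3. For the large subunit it was 0.172, 0.747 and 0.507 points, and for the small subunit -0.0500, 0.3898 and 0.3599 points, of opposite sign in number 1. Between group means the difference was 0.475 points for the large subunit and 0.233 points for the small subunit. It stayed above 0 when any sample was left out. The small subunit difference was 0.0387 points without siControl 3, 0.0791 points without siDerl1 1, 0.132 points without siControl 2, 0.529 points without siControl 1 and 0.364 points without siDerl1 3. The large subunit difference was 0.263 points without siControl 3 and 0.784 points without siControl 1. The ratio of large to small subunit TPM was 1.29, 1.32 and 1.32 in siControl NSCs and 1.32, 1.34 and 1.32 in siDerl1 NSCs. The groups overlapped, and within numbers 1, 2 and 3 siDerl1 minus siControl was 0.0280, 0.0290 and 0.0041.

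**Figure D1:**
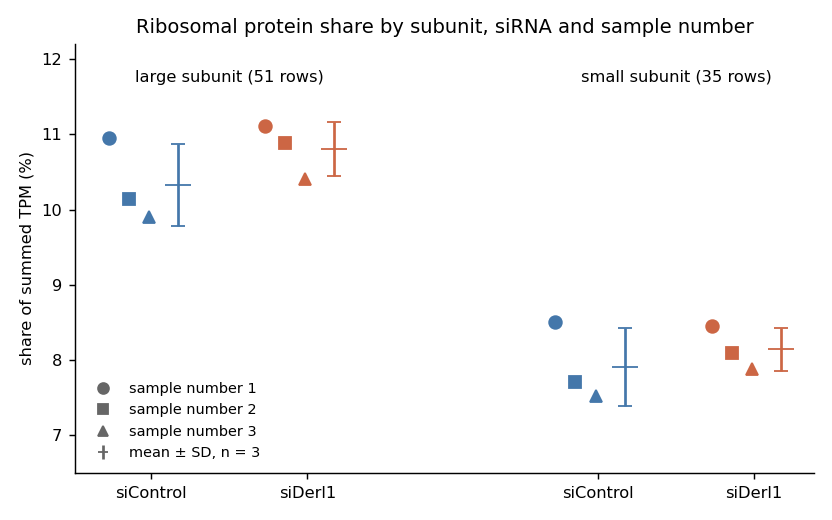
Share of the summed TPM (%, axis from 6.5) held by the 51 large and 35 small subunit rows, by siRNA group. Each point is a sample with its number as the symbol, and bars give the mean ± SD (n = 3). The groups overlap in both subunits, and number 1 is highest and number 3 lowest in every group.

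The mRNA levels (TPM) of proteins of the same particle were far from equal. Among core genes the mean over 6 samples ranged from 385 to 7328 TPM in the large subunit (median 2308 TPM, highest to lowest 19.0) and from 927 to 4498 TPM in the small subunit (median 2553 TPM, highest to lowest 4.85). In the large subunit 43 of 46 and in the small subunit 30 of 31 core genes were at a mean of at least 1000 TPM. The order was stable. The Spearman correlation between samples over the 77 core genes was 0.977 to 0.993, a description over genes that share each library. The same 10 members were the highest 10 in every sample.

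*Rpl41*, which encodes a very short basic peptide of the large subunit, was the highest member in every sample, at 7419, 7181 and 6922 TPM in siControl NSCs and 7173, 7648 and 7627 TPM in siDerl1 NSCs. *Rplp1* and *Rplp0*, which form the stalk that recruits elongation factors, followed within the large subunit at means of 4761 and 4192 TPM. *Rpl13a* and *Rpl32* came next in that subunit, at 3423 and 3140 TPM. The sample values of *Rplp1* (4454 to 4925 TPM) and *Rplp0* (4018 to 4438 TPM) did not overlap, whereas those of *Rpl13a* (3119 to 3763 TPM) and *Rpl32* (2816 to 3513 TPM) did. The lowest core genes of the large subunit stood apart from the others: *Rpl36a* at 541, *Rpl28* at 480 and *Rpl15* at 385 TPM, where the next was *Rpl5* at 1080 TPM. The sample values of *Rpl15* (351 to 419 TPM) and *Rpl28* (438 to 545 TPM) did not overlap, while those of *Rpl28* and *Rpl36a* (447 to 636 TPM) did.

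In the small subunit the highest levels were those of *Rps2*, a protein of the mRNA entry side, at 4498 TPM, *Rps23*, a protein of the decoding centre, at 4300 TPM, and *Rps15* at 4246 TPM. *Rps29* at 3953 TPM and *Rps26* at 3935 TPM, the latter a protein at the mRNA exit channel, closed the highest 5. All neighbours among these 5 overlapped in their sample values. *Rps10* was among the lowest, at 1023 TPM. *Rps27a*, which encodes a small subunit protein fused to ubiquitin, was the lowest core gene at 923, 935 and 956 TPM in siControl NSCs and 886, 904 and 958 TPM in siDerl1 NSCs.

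**Figure D2:**
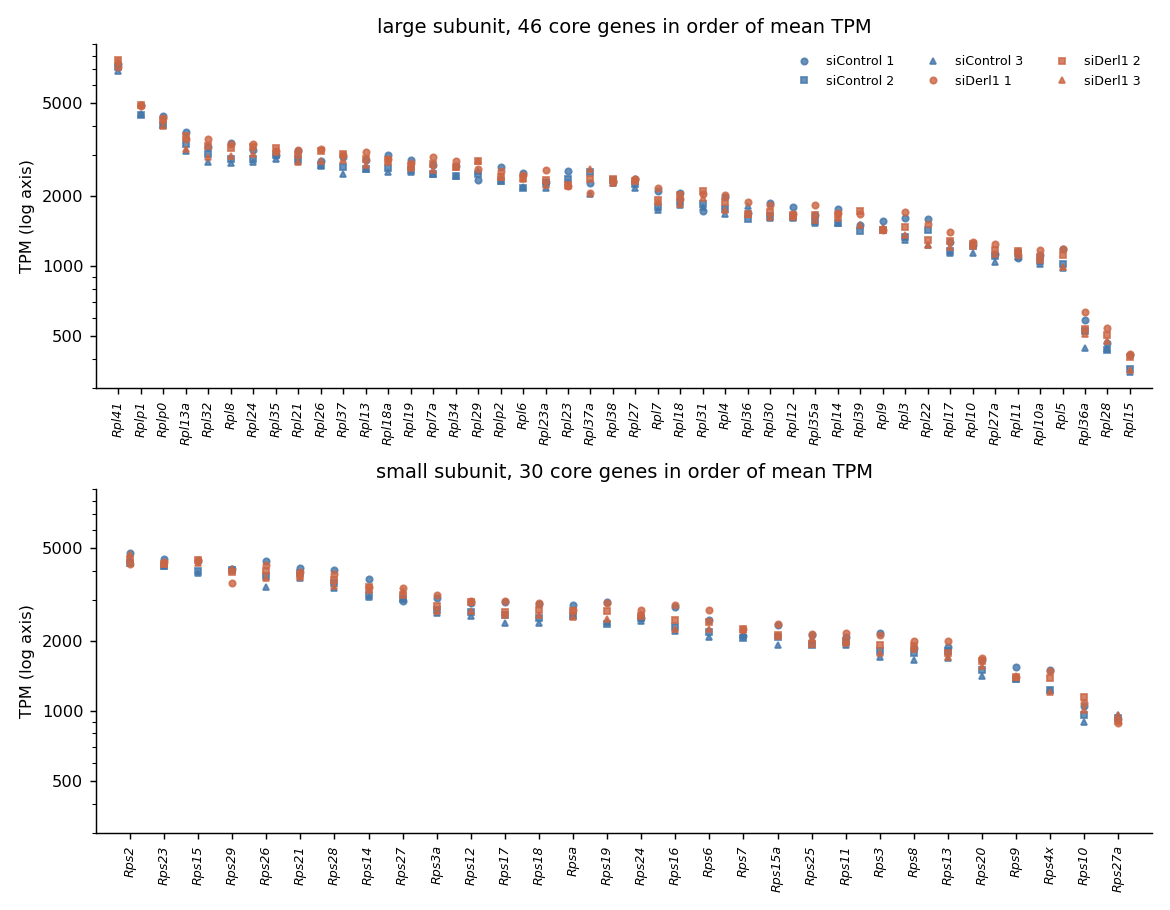
TPM (log axis) of the 46 large and 30 of the 31 small subunit core genes in order of mean TPM, with a point for each of the 6 samples. The differences between genes, 19.0 from highest to lowest in the large and 4.85 in the small subunit, are far wider than the spread of points within a gene.

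The paralogs were low beside their core genes, with 1 exception. *Rpl22l1* lay at 119 to 151 TPM, beside 1228 to 1591 TPM of *Rpl22*. *Rps27l*, known as a p53 target, made up 4.77 to 6.67% of the sum of *Rps27* and *Rps27l*. *Rpl36al* lay at 608 to 680 TPM and had 0.965 to 1.44 times the TPM of *Rpl36a*. *Rpl39l*, known from the testis, had 0, 0.53 and 0.65 TPM in siControl NSCs and listed at 0 in all 3 siDerl1 samples, beside 1423 to 1721 TPM of *Rpl39*. *Rpl3l*, known from heart and skeletal muscle, was at most at 0.20 TPM, beside 1292 to 1711 TPM of *Rpl3*. *Rps4y2* and *Rps4x-ps1* were listed at 0 in all 6 samples. Paralogs that share reads can be split between rows by RSEM, so these ratios are uncertain.

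No ribosomal protein gene was called between siDerl1 and siControl NSCs. In limma on log2(TPM + 1), 82 of the 86 members had a mean TPM of at least 1 and entered the fit with 10331 genes in all. None of the 82 had a Benjamini-Hochberg adjusted p under 0.05 (lowest 0.704), as was true of all genes (0 of 10331, 0%). At an unadjusted p under 0.05, 3 members (3.66%) were higher and 0 lower, where 2.67% of all genes were higher and 4.03% lower. The share of higher members was thus near the background. The added 1 TPM shrinks the difference of a low gene, which concerns few members.

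These 3 encode large subunit proteins. *Rpl31*, a protein near the exit of the peptide tunnel, had 1719, 1854 and 1805 TPM in siControl NSCs and 2044, 2109 and 1963 TPM in siDerl1 NSCs, a log2 difference of 0.19 (standard error 0.06, limma adjusted p = 0.704). *Rpl28* had 469, 438 and 440 TPM in siControl NSCs and 545, 508 and 477 TPM in siDerl1 NSCs (log2 difference 0.18, standard error 0.07, limma adjusted p = 0.704). *Rpl29* had 2339, 2495 and 2559 TPM in siControl NSCs and 2605, 2836 and 2829 TPM in siDerl1 NSCs (log2 difference 0.16, standard error 0.06, limma adjusted p = 0.712). In all 3 genes every siDerl1 sample lay above every siControl sample, and all 3 fail the adjustment.

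The groups did not overlap for 8 members, 7 higher in siDerl1 NSCs (8.54% against 5.09% of all genes) and 1 lower (1.22% against 8.52%). Beside the 3 above, the higher ones were *Rps27*, *Rps7*, *Rps24* and *Rpl35*, the last 3 named after their values were seen. *Rps27* had 2950, 3019 and 3065 TPM in siControl NSCs and 3362, 3150 and 3259 TPM in siDerl1 NSCs. *Rps7* had 2097, 2051 and 2121 TPM in siControl NSCs and 2249, 2240 and 2233 TPM in siDerl1 NSCs. The protein of *Rps7* belongs to the small subunit and is, like *Rpl5* and *Rpl11*, known to bind MDM2. The lower one was *Rpl23*, also named after its values were seen, at 2572, 2365 and 2305 TPM in siControl NSCs and 2208, 2240 and 2218 TPM in siDerl1 NSCs (log2 difference -0.12, standard error 0.06, limma adjusted p = 0.763).

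Small differences in 1 direction were common to most members. The median log2 difference over the 82 members was 0.06 and 69 of them (84.1%) had a higher estimate in siDerl1 NSCs, whereas the median over all genes tested was -0.02 and 45.2% were higher. It was 0.06 with 44 of 49 higher in the large subunit, and 0.05 with 25 of 33 higher in the small subunit. Members share each library and its scaling, so they are not replicates of this difference. Within numbers 1, 2 and 3 the member median was 0.02, 0.09 and 0.06, with 48, 71 and 73 of 82 higher, against 51.9, 44.0 and 42.6% of all genes. In 43 of 82 members (52.4%) siDerl1 was above siControl within all 3 numbers, against 15.8% of all genes, and in 1 member (1.22%), *Rpl23*, it was below within all 3, against 22.1%. The median rested on single samples: it was 0.02 without siControl 3, 0.02 without siDerl1 1, 0.11 without siControl 1 and 0.09 without siDerl1 3, and the number of higher estimates ranged from 51 to 75.

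The samples of the same number were also compared as pairs, with the sample number as a block in limma. Again 0 of 82 members had an adjusted p under 0.05 (lowest 0.0993), where 0.552% of all genes did. At an unadjusted p under 0.05, 22 members (26.8%) were then higher and 1 (1.22%), *Rpl23*, lower, against 6.84% and 8.88% of all genes. When the block was fitted without an intensity trend, an alternative chosen after seeing the data, 2 members (2.44%) were higher and 0 lower, against 5.93% and 6.82% of all genes, so that the share of higher members was then below the background. *Rps6*, the S6 kinase substrate of the small subunit, was among the 22, with 2460, 2191 and 2072 TPM in siControl NSCs and 2708, 2413 and 2250 TPM in siDerl1 NSCs. Its log2 difference was 0.13, with a standard error of 0.09 without the block and 0.04 with it (limma adjusted p = 0.828 and adjusted p = 0.163). The siDerl1 sample of each number lay above the siControl sample of that number, while the groups overlapped. *Rps10* had a log2 difference of 0.16 (standard error 0.08, limma adjusted p = 0.763) and *Rpl39* one of 0.14 (standard error 0.07, limma adjusted p = 0.763).

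**Figure D3:**
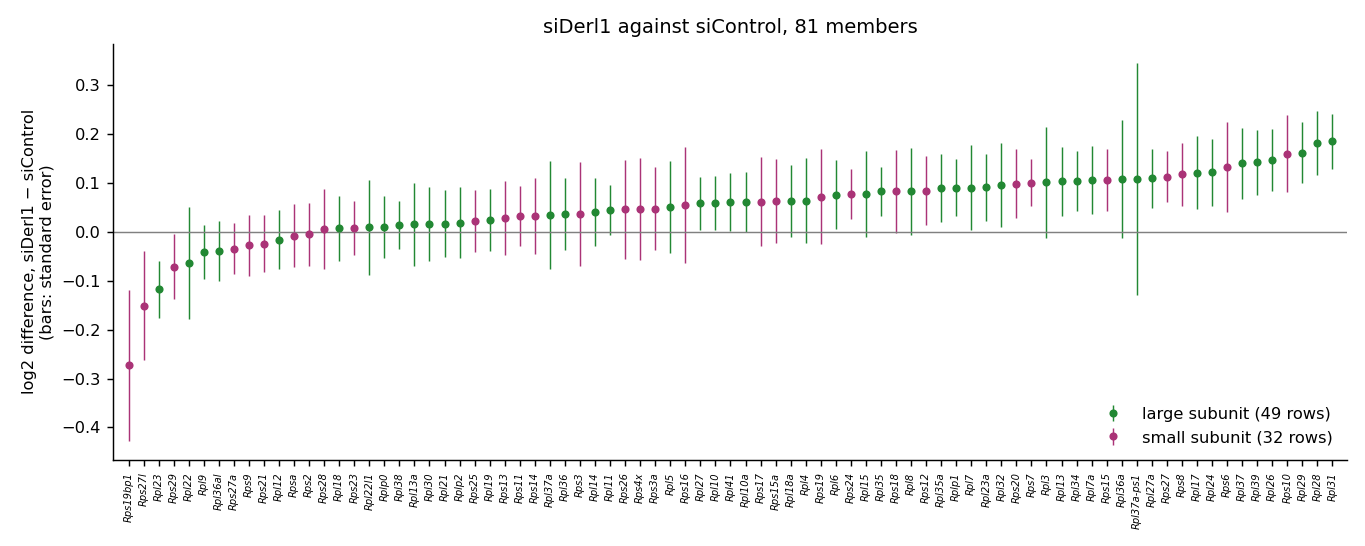
Log2 difference siDerl1 minus siControl (vertical axis, bars give the standard error from limma without the block) of 81 of the 82 members tested, in order, by subunit. Of the 81 points 68 lie above 0 and none has an adjusted p under 0.05.

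Some members were read for their known roles, from a list set with earlier results of these data known. *Rplp0*, often used as a reference gene, had 4438, 4045 and 4053 TPM in siControl NSCs and 4345, 4256 and 4018 TPM in siDerl1 NSCs (log2 difference 0.01, standard error 0.06). *Rpl38*, known for its part in translation of Hox mRNAs, had the narrowest range of log2(TPM + 1) among the 82 members tested (0.06), from 2267 to 2359 TPM. *Rpl5* (980 to 1187 TPM) and *Rpl11* (1088 to 1162 TPM), which with 5S rRNA can bind MDM2, and *Rpl10* (1135 to 1269 TPM), which joins the large subunit late in assembly, all overlapped between groups. *Rps19*, a gene of Diamond-Blackfan anemia, lay at 2371 to 2923 TPM and overlapped too. *Rps19bp1* had 34.5, 39.5 and 40.9 TPM in siControl NSCs and 37.5, 24.9 and 33.2 TPM in siDerl1 NSCs, with the lowest estimate of the 82 members tested (log2 difference -0.27, standard error 0.15, limma adjusted p = 0.772).

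More ribosomal protein genes were called for the sample number than for the siRNA. In a fit with siRNA and number, the limma F-test of the number called 16 of 82 members at an adjusted p under 0.05 (19.5%), against 10.6% of all genes. Of these 7 belonged to the large and 9 to the small subunit, and all 16 were lower in numbers 2 and 3 than in number 1. Among the 1844 other genes with a mean of at least 100 TPM, 319 (17.3%) were called, a share close to that of the members. The median log2 difference of all members was -0.09 for number 2 and -0.14 for number 3 against number 1, with 73 and 70 of 82 lower, and that of all genes was 0.01 and 0.00. Both samples numbered 1 lay above the other 4 in 39 members (47.6%) and below them in 0, where 15.7% and 17.0% of all genes did so. These 39 were 19 of the 46 large and 20 of the 31 small subunit core genes. Number 1 was set apart for this count after the values were seen, so the count describes the same values as the F-test.

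The smallest p of the sample number belonged to *Rps16*, at 2788, 2282 and 2208 TPM in siControl 1 to 3 and 2858, 2453 and 2245 TPM in siDerl1 1 to 3 (log2 number 3 minus number 1 -0.34, limma adjusted p = 0.00544). *Rpl3*, a protein near the peptidyl transferase centre, had 1618, 1331 and 1292 TPM and 1711, 1470 and 1366 TPM in the same order (-0.32, limma adjusted p = 0.00658). *Rpl22* had 1591, 1428 and 1228 TPM and 1519, 1301 and 1235 TPM (-0.34, limma adjusted p = 0.0103). In all 3 genes number 1 was highest and number 3 lowest in both siRNA groups. *Rpl36a* (-0.36, limma adjusted p = 0.0113), *Rps3*, also known as a DNA repair protein (-0.30, limma adjusted p = 0.0131), and *Rps6* (-0.26, limma adjusted p = 0.0194) followed.

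These calls depended on the fit and on single samples. The count of 16 was 3 with no filter on low values (3.57%, against 4.61% of all genes), 6 with median-of-ratios scaling (7.32% against 9.45%), 1 without the siRNA term (1.22% against 5.15%) and 0 without an intensity trend (0% against 2.44%). In these 4 fits the share of members called was thus below that of all genes, where it was above it in the fit reported. The count was 4 without siControl 3 (4.88% against 7.12%), 5 without siDerl1 3 (6.10% against 5.93%) and 33 without siDerl1 1 (40.2% against 14.6%). It was 11 without siControl 2 or without siDerl1 2 (13.4%, against 10.6% and 11.1%). The share of members stayed above that of all genes with 19 called at a mean TPM of at least 5 (23.2% against 12.1%), 17 with a pseudocount of 0.1 (20.7% against 10.3%), 17 with scaling on the rows that are no member (20.7% against 10.3%) and 20 without siControl 1 (24.4% against 16.2%). Whether members were called more often than all genes thus depended on the fit. Marker genes moved with the number as well. Of 12 neural stem cell markers 9 were called for it (10.6% of all genes), 5 higher and 3, *Sox2*, *Fabp7* and *Gfap*, lower in both numbers 2 and 3 than in number 1. *Hes1* was higher in number 3 only. The summed TPM of the 12, to which *Vim* (3008 to 5044 TPM) and *Id3* (958 to 1995 TPM) gave most, was 5301, 7416 and 8577 in siControl 1, 2 and 3 and 5746, 7755 and 8708 in siDerl1 1, 2 and 3. The 8 oligodendrocyte markers summed to 2128, 1967 and 1790 TPM in siControl 1, 2 and 3 and 2288, 2032 and 1759 TPM in siDerl1 1, 2 and 3, with 2 of 6 tested called for the number. The part of either in the ribosomal protein result was not tested.

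**Figure D4:**
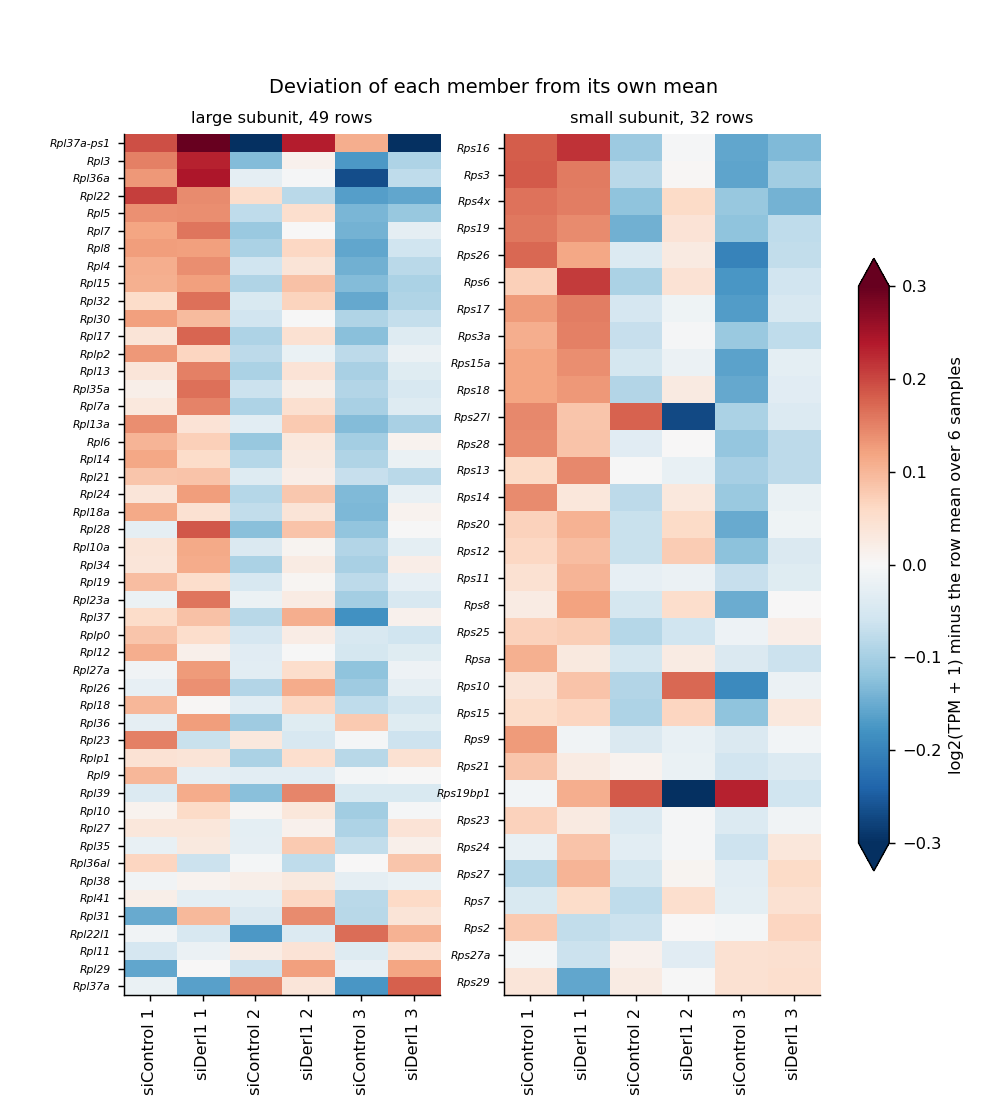
Deviation of log2(TPM + 1) from the row mean over 6 samples (colour, clipped at 0.3) for the 49 large and 32 of the 33 small subunit rows tested, with samples of the same number side by side. Most rows are above their mean in both samples numbered 1 and below it in siControl 2 and siControl 3, while *Rpl37a*, *Rpl29* and *Rps29* are not among them.

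Sample by sample, 64 of 82 members were above their own mean in siControl 1, 11 in siControl 2 and 7 in siControl 3 (78.0, 13.4 and 8.54%, against 48.7, 57.1 and 54.6% of all genes). In siDerl1 1, 2 and 3 the numbers were 71, 57 and 23 (86.6, 69.5 and 28.0%, against 50.005, 48.3 and 45.6% of all genes). Of the 77 core genes 55 (71.4%) had their lowest value in siControl 3 and 37 (48.1%) their highest in siDerl1 1, against 14.1 and 22.5% of all genes. The median range of log2(TPM + 1) over the 6 samples was 0.25, close to the 0.26 of other genes with a mean of at least 100 TPM, beside 0.40 for all genes tested and 0.33 for mitochondrial ribosomal proteins. Ranges above 0.5 were seen in 4 members, *Rpl37a-ps1*, *Rps19bp1*, *Rpl36a* and *Rpl39l*, and only *Rpl36a* is a core gene (0.51).

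The widest range among members with a mean of at least 1 TPM, 0.80, was that of *Rpl37a-ps1*, a pseudogene row. It had 1563, 991 and 1475 TPM in siControl NSCs and 1730, 1611 and 1028 TPM in siDerl1 NSCs. Its core gene *Rpl37a*, named after its values were seen, had 2276, 2547 and 2043 TPM in siControl NSCs and 2062, 2365 and 2612 TPM in siDerl1 NSCs. The 2 samples lowest for the pseudogene row, siControl 2 and siDerl1 3, were the 2 highest for *Rpl37a*. Their sum was 3840, 3538 and 3518 TPM in siControl NSCs and 3793, 3976 and 3640 TPM in siDerl1 NSCs, with a range of only 0.18 on the log2 scale. The pseudogene row made up 28.0 and 28.2% of the sum in siControl 2 and siDerl1 3 and 40.5 to 45.6% in the other 4 samples, a difference that follows neither siRNA nor number. A gene and a near-identical copy can share reads, so the level of each is uncertain. In *Rps27l*, with a range of 0.45, siDerl1 2 was lowest at 158 TPM and siControl 2 highest at 216 TPM (log2 difference siDerl1 minus siControl -0.15, standard error 0.11, limma adjusted p = 0.844).

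**Figure D5:**
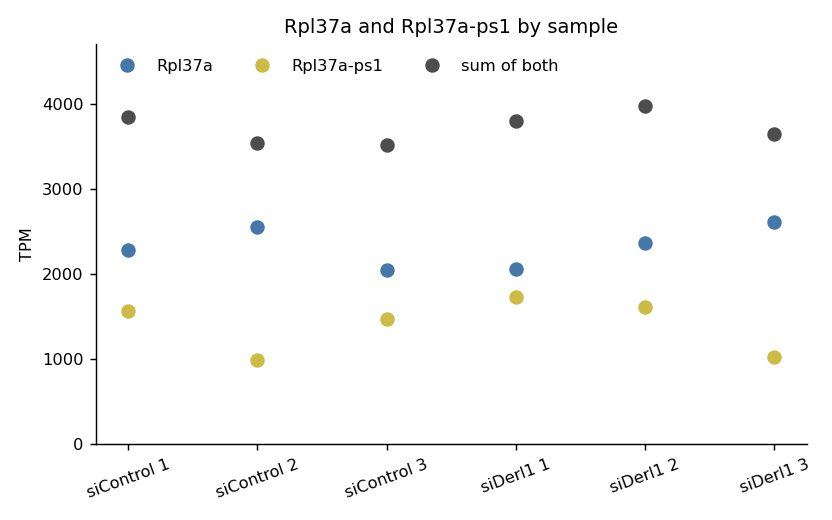
TPM of *Rpl37a*, of the pseudogene row *Rpl37a-ps1* and of their sum in each of the 6 samples. The rows move in opposite directions in siControl 2 and siDerl1 3, while the sum stays between 3518 and 3976 TPM.

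Ribosomal proteins that the symbol rule does not catch had estimates of the same sign. *Fau*, a ubiquitin-like protein fused to a small subunit protein, had 2307, 2254 and 2308 TPM in siControl NSCs and 2380, 2453 and 2382 TPM in siDerl1 NSCs (log2 difference 0.07, standard error 0.05, limma adjusted p = 0.828). The scaffold protein Rack1, listed as *Gnb2l1*, had 1585, 1325 and 1347 TPM in siControl and 1604, 1547 and 1395 TPM in siDerl1 NSCs. Both had a higher estimate in siDerl1 NSCs and neither passed the adjustment.

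Other genes of the pathway were read from lists, and 0 of their members had an adjusted p under 0.05 in limma between siDerl1 and siControl NSCs. Of 19 other TOP mRNAs, mostly translation factors, 11 had a higher estimate (median 0.01), and *Tpt1* (0.13, adjusted p = 0.704) and *Pabpc1* (0.21, adjusted p = 0.713) had the smallest p. Of 36 genes of ribosome assembly and RNA polymerase I, 8 were higher and 28 lower (median -0.08), and the smallest p were those of the box C/D protein gene *Nop58* (-0.22, adjusted p = 0.721) and the rRNA methyltransferase gene *Nop2* (-0.21, adjusted p = 0.740). The sum of these 36 overlapped between groups, at 3571 to 3875 TPM in siControl NSCs and 3374 to 3663 TPM in siDerl1 NSCs. Ribosomal protein and assembly genes thus had medians of opposite sign, a difference that was not tested.

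Of 18 genes of mTORC1 and MYC, 7 were higher (median -0.02). *Eif4ebp1*, the mTORC1-controlled inhibitor of cap-dependent translation, had a log2 difference of 0.45 (standard error 0.09, limma adjusted p = 0.669, adjusted p = 0.0366 with the sample number as a block and adjusted p = 0.255 with the block and no trend). Of 14 p53 pathway genes 4 were higher (median -0.10), led by *Plk2* (-0.28, limma adjusted p = 0.704) and *Cdkn1a* (0.55, limma adjusted p = 0.743). Of 69 mitochondrial ribosomal protein genes 40 were higher (median 0.02), and the smallest p were those of *Mrpl41* (-0.25, limma adjusted p = 0.704) and *Mrps18a* (0.18, limma adjusted p = 0.741). Of 39 proteasome genes 8 were higher (median -0.05), with *Psmc6* (-0.21) and *Psmd1* (-0.16) at the smallest p. For the sample number, 4 of 19 other TOP mRNAs (21.1%) and 3 of 36 assembly genes (8.33%) were called, against 10.6% of all genes, and all 7 were lower in numbers 2 and 3 than in number 1. The medians for number 3 against number 1 were -0.15 and -0.17 in these lists, beside -0.14 in the ribosomal protein genes.

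The libraries were checked against their labels. *Derl1* had 122, 132 and 128 TPM in siControl NSCs and 44.9, 70.8 and 74.0 TPM in siDerl1 NSCs, lower in 3 of 3 siDerl1 samples (two-sided exact permutation test, p = 0.1, which is the lowest possible with 3 samples a group). Its log2 difference was -1.03 (limma adjusted p = 0.497, adjusted p = 0.00884 with the sample number as a block and adjusted p = 0.229 with the block and no trend). The neural stem cell marker *Sox2* was at 445 to 565 TPM and *Nes* at 99.4 to 137 TPM. Other markers of the same list were low, with *Pax6* at 2.24 to 4.88 TPM, *Hes5* at 4.62 to 35.4 TPM and *Hes1* at 11.9 to 24.7 TPM. Between the siRNA groups the smallest p of that list were those of *Nes* (log2 difference -0.26, limma adjusted p = 0.704) and *Gfap* (0.62, limma adjusted p = 0.704, adjusted p = 0.0219 with the block and adjusted p = 0.229 with the block and no trend). Genes of the oligodendrocyte lineage were also high: their 8 markers summed to 1790 to 2128 TPM in siControl and 1759 to 2288 TPM in siDerl1 NSCs, with *Sox10* at 541 to 787 TPM, whereas *Mog* was listed at 0 in all samples and *Mag* lay at 0.09 to 0.95 TPM. The smallest p there were those of *Pdgfra* (-0.42) and *Mbp* (0.17). Neuron markers summed to 109, 114 and 102.34 TPM in siControl NSCs and 102.26, 101 and 78.1 TPM in siDerl1 NSCs. These sums did not overlap, by a narrow margin. *Dcx* (-0.42) and *Syt1* (-0.34) had the smallest p there and were lower in every siDerl1 sample than in any siControl sample, as were 8.52% of all genes. *Map2* and *Prox1* overlapped between groups. *Syn1* (2.72 to 4.05 TPM) had a higher mean in siDerl1 NSCs, as had *Neurod1*, *Snap25* and *Rbfox3*, which reached at most 1.49 TPM. No neuron marker was called, and the part of these genes in the ribosomal protein values was not tested. Microglia markers summed to at most 5.03 TPM and those of fibroblasts and endothelium to at most 2.98 TPM, with 3 and 4 of 8 listed at 0 throughout, and *Cd68* (-0.29) and *Col1a1* (0.39) alone entered the fit.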

How the data were processed

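RNA was sequenced from 6 samples of adult rat hippocampal NSCs, 3 siControl and 3 siDerl1. The authors prepared strand-specific poly(A) libraries and, per the labels, used Trimmomatic (0.39), STAR (2.7.3a), the genome rn6 and RSEM (1.3.2). The values they deposited are TPM with 2 decimals. TPM are shares of a fixed sum, so the depth behind them is unknown, a change of abundant genes shifts all others, and RSEM may split reads between a gene and its copies. Per the labels edgeR (3.28.1) was also used, on values not used here.

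Groups and sample numbers were taken from the sample titles. Rows with a mean TPM of at least 1 (10331) were compared as log2(TPM + 1) with limma (3.58.1, R 4.3.3), using lmFit and eBayes with an intensity trend and Benjamini-Hochberg adjustment over all genes (threshold 0.05). The sample number was tested with an F-test in a fit with siRNA and number. Over all genes, the deviations of same-numbered samples from their group means correlated at r = 0.70, 0.35 and 0.51 for numbers 1, 2 and 3, so the number was also used as a block. Samples of different number correlated at -0.59 to 0.34, the highest being siControl 2 with siDerl1 3. Over the members the same-numbered r was 0.47, -0.37 and 0.17, and siControl 2 with siDerl1 3 had 0.57, so the members alone do not show the pairing for number 2. The titles are the only source of this pairing. At most 0.232% of the genes tested had equal values in any 2 samples. Alternatives were no filter, a mean TPM of at least 5, a pseudocount of 0.1, median-of-ratios scaling, scaling on the rows that are no member, no trend, no siRNA term and each sample left out. Fits that join the block with another choice were added after seeing the data.

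Members and gene lists were chosen with earlier results of these data known. The members named are the 5 highest and 5 lowest of each subunit, rows listed at 0, the 6 widest ranges, those with an unadjusted p under 0.05, the 6 smallest p of the sample number, paralogs with their core gene, and *Rps6*, *Rps19*, *Rpl5*, *Rpl11*, *Rpl10*, *Rpl38*, *Rplp0* and *Rps19bp1*, and of each other list the 2 genes of smallest p. A few of the genes so chosen are not reported here. Start windows came from RefSeq (GRCr8), a build other than rn6, and 20 members had no match by accession.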

Additional observations from a re-analysis of the deposited data

How the results depend on the processing

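Under every alternative run, 0 of the members tested were called between siDerl1 and siControl NSCs, and the median difference and both subunit share differences stayed above 0. The share of all genes called was also 0% in every fit without the replicate block. It was 0.552% with the block, 0.407% with the block and scaling on the rows that are no member, and 0% with the block and no intensity trend. Members higher at an unadjusted p under 0.05 numbered 3 as reported (3.66%, against 2.67% of all genes) and 22 with the replicate block (26.8% against 6.84%). They numbered 26 with the block and scaling on the rows that are no member, added after seeing the data (31.7% against 7.76%). Without an intensity trend there was 1 (1.22% against 2.87%), and with the block and no trend the share was 2.44% against 5.93%. The count was 0 to 15 when a single sample was left out. It was 0 without siDerl1 2 (0% against 1.54%), 1 without siControl 2 (1.22% against 1.91%), 5 without siDerl1 3 (6.10% against 2.83%) and 15 without siControl 1 (18.3% against 2.64%). Members lower numbered 0 as reported (0%, against 4.03% of all genes) and 1 with the block (1.22% against 8.88%). They numbered 0 to 1 with a sample left out (0 to 1.22% against 2.21 to 4.88%). The median log2 difference ranged from 0.0207 to 0.112 with a sample left out. The calls for the sample number were 16 as reported, 3 with no filter, 6 with median-of-ratios scaling, 0 with no intensity trend, 1 with no siRNA term (19.5, 3.57, 7.32, 0 and 1.22% of the members, against 10.6, 4.61, 9.45, 2.44 and 5.15% of all genes) and 4 to 33 with a sample left out, while they were 17 to 19 with a mean TPM of at least 5, a pseudocount of 0.1 or scaling on the rows that are no member. *Derl1* had an adjusted p of 0.497 in limma at a log2 difference of -1.03, and the same difference passed with the replicate block (adjusted p = 0.00884) and, at -1.02, with the block and scaling on the rows that are no member (0.0160), but not with the block and no intensity trend (0.229). Among the members the replicate block changed no call. Outside them, *Eif4ebp1* (limma adjusted p = 0.0366) and *Gfap* (0.0219) also passed with the block, but not with the block and no intensity trend (0.255 and 0.229). The cause of these changes was not tested. TPM keep no depth, so the precision of a low value such as *Rpl39l* cannot be given, and no test of single outlying samples was run in these groups of 3. Effects of RNA quality and of the order of handling were not analysed here.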
